A study of Mus musculus with 4 samples.

Results

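The cytosolic heat shock chaperones were followed through 10 genes picked by symbol from the 28443 genes of the deposited count table. They were the HSP70 genes Hspa8, Hspa1a and Hspa1b, the HSP110 genes Hspa4 and Hsph1, the HSP90 genes Hsp90aa1 and Hsp90ab1, the J-domain genes Dnaja1 and Dnajb1, and the transcription factor gene Hsf1. RNA-seq was run on mouse bone marrow-derived macrophages (BMDMs) that had been given RANKL, the cytokine that starts osteoclast differentiation, at 50 ng/ml for 1 day. MYC-deficient cells came from MYC f/f LysM cre mice, in which Cre recombinase, made from the LysM locus in myeloid cells, removes floxed Myc, and MYC-WT cells came from LysM cre mice with intact Myc. Each genotype had 2 libraries, described by the submitters as biological replicates. All 4 libraries therefore carried LysM cre and had received M-CSF and RANKL, and the mice were 8 weeks old. No unstimulated library was analysed here.

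Heat shock chaperones bind unfolded or partly folded proteins and use ATP to help them fold, mature or be degraded. HSP70 proteins bind exposed hydrophobic stretches, J-domain proteins deliver substrates and start ATP hydrolysis, and HSP110 proteins release the nucleotide so that the cycle can begin again. HSP90 proteins act later, on nearly folded clients such as kinases and nuclear receptors. HSF1 is the transcription factor that induces many of these genes when proteins unfold, by binding repeats of the letters GAA in alternating orientation. MYC is a transcription factor that promotes cell growth, ribosome production and protein synthesis.

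In MYC-deficient cells 6 of the 10 genes fell. They were Hspa1b, both HSP90 genes, Hspa4, Dnaja1 and Hspa8, with falls between 1.51-fold and 3.59-fold. None rose in edgeR's quasi-likelihood test, DESeq2 or limma-trend, and 0 were higher at an unadjusted p under 0.05. Dnajb1 had nearly equal values in the 2 genotypes, and Hspa1a, Hsph1 and Hsf1 were lower in both MYC-deficient libraries than in both MYC-WT libraries without being called. Together the 10 genes took 0.343% and 0.335% of the counts in MYC-deficient libraries, against 0.637% and 0.655% in MYC-WT libraries.

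The sequences before the start of the Hspa1a, Hspa1b and Dnajb1 genes are shown because the first 2 are near-copies that differed in their counts, and Dnajb1 is a heat-inducible gene whose counts hardly differed between genotypes. They are the 250 bases upstream of the RefSeq start in GRCm38.p6, 5′ to 3′ on the gene's strand: chr17:34972157-34972406 on the minus strand for Hspa1a, chr17:34959239-34959488 on the minus strand for Hspa1b and chr8:83607925-83608174 on the plus strand for Dnajb1. Capitals mark the paired heat shock units GAANNTTC or TTCNNGAA, each of which reads the same on both strands.
Hspa1a: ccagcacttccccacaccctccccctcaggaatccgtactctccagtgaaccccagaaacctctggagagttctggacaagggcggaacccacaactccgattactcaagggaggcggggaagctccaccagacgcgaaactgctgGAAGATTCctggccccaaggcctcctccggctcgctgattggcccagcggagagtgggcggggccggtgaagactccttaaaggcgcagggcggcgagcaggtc
Hspa1b: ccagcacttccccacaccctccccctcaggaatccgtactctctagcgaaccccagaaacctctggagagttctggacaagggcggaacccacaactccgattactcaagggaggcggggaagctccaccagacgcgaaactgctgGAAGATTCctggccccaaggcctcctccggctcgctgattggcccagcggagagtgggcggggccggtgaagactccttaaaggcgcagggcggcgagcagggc
Dnajb1: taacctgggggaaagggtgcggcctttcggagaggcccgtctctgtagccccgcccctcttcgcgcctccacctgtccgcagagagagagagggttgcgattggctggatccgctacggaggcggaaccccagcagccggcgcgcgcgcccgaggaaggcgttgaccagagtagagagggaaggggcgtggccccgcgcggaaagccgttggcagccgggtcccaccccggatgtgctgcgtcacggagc
The Hspa1a and Hspa1b windows differed at 3 of 250 bases, and both held 1 paired unit, whose first base lay 104 bases before the start. Windows were found for 6 of the 10 genes (Hspa1a, Hspa1b, Hspa4, Hsph1, Dnaja1 and Dnajb1), and 1 such unit also lay in both Hsph1 windows and in 1 of 3 Dnaja1 windows. The windows of Hspa4 and both windows of Dnajb1 held none, and 12.8% of all 32851 windows of this length held at least 1. The longer arrangements GAANNTTCNNGAA and TTCNNGAANNTTC, which contain the paired unit, were searched first, occurred in 0.466% of all windows and were found in none of these genes. The E-box CACGTG, a sequence bound by MYC and related factors, occurred in 6.02% of all windows and here only in 1 of the 2 Hsph1 windows. A match describes the letters in the window and is not evidence of binding. The search allowed no mismatch and covered 250 bases, so a window without a match does not show that HSF1 sites are absent.

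Differences between genotypes were tested by edgeR (quasi-likelihood, TMM-scaled totals), with p-values adjusted over the 13436 genes that had enough counts. Calls needed an adjusted p below 0.05 together with more than 1.5-fold change. Levels are given as CPM, a gene's counts scaled to 1000000 total counts in the library, and log2 fold changes as MYC-deficient over MYC-WT with their standard errors (n = 2 libraries each). Total counts were 35794698 and 27544806 in MYC-deficient libraries and 33234789 and 29146387 in MYC-WT libraries. All 10 genes could be tested. The 6 that fell compare with 9.91% of all genes tested that were called lower, and the 0 that rose with 6.06% called higher. In 9 of the 10 genes both MYC-deficient libraries lay below both MYC-WT libraries, as they did in 35.9% of all genes tested. The median log2 fold change of the 10 genes was -0.65, beside -0.01 over all genes tested. Myc itself had 17.7 and 24.2 CPM in MYC-deficient libraries, against 230 and 250 CPM in MYC-WT libraries, an 11.3-fold fall (edgeR's quasi-likelihood test, adjusted p = 0.00711). The sources used here do not say which part of Myc the floxed allele removes, so counts from the part left can be among these.

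**Figure D1:**
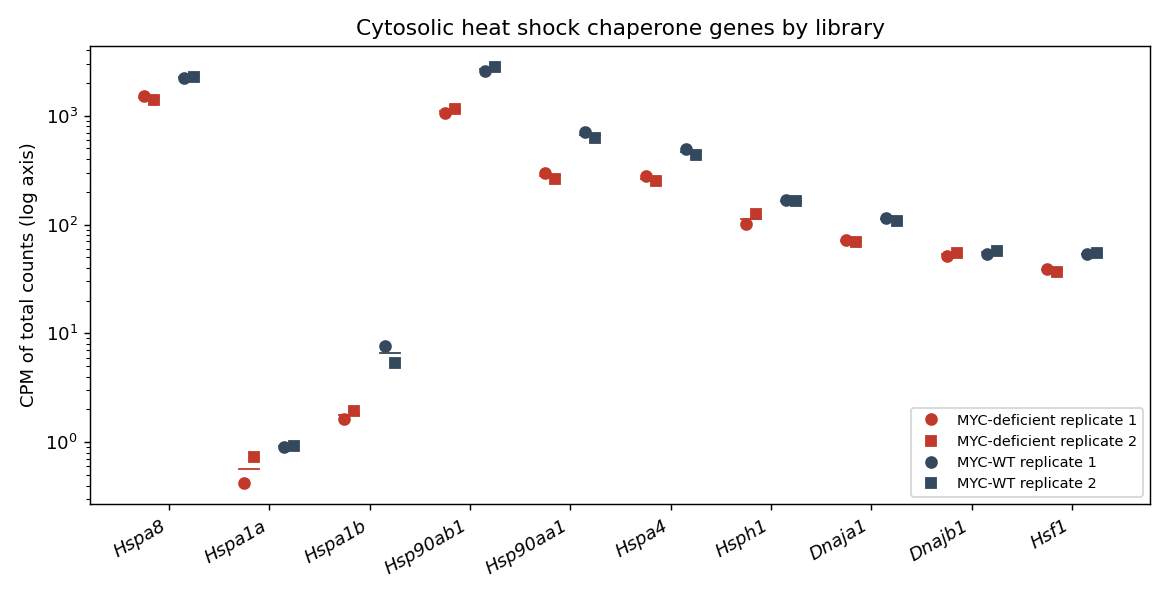
Level of each chaperone gene in CPM of total counts on a log axis, with MYC-deficient libraries (red) left of MYC-WT libraries (dark blue); circles are replicate 1, squares replicate 2 and horizontal lines the mean of 2 libraries. The groups are separate for every gene but Dnajb1, and Hspa8 and Hsp90ab1 stand highest in both genotypes.

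Hspa8, which encodes the constitutive HSP70 of the cytosol (HSC70), had 1521 and 1397 CPM in MYC-deficient libraries, against 2205 and 2284 CPM in MYC-WT libraries. The groups were well separated, and the fall was 1.51-fold, close to the fold threshold (log2 fold change -0.59 ± 0.14, edgeR's quasi-likelihood adjusted p = 0.0394). It lost its call whichever of the 4 libraries was left out, with adjusted p between 0.0774 and 0.261. It also lost it with RLE scaling (log2 fold change -0.57) and with DESeq2 (-0.56), where the fold change was below 1.5, and with limma-trend (-0.56, adjusted p = 0.0594). Of the 50-base stretches in Hspa8 exons, 39.4% also occur in other genes, 12 of them pseudogenes. The copy that shares most, the processed pseudogene Gm15459, had 284 and 172 counts in MYC-deficient libraries and 344 and 268 counts in MYC-WT libraries, small beside the 38471 to 73274 counts of Hspa8.

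Hspa1b, which encodes a heat-inducible HSP70, showed the largest fall of the 10 genes at a low level. It had 59 and 53 counts in MYC-deficient libraries (1.65 and 1.92 CPM), against 257 and 156 counts in MYC-WT libraries (7.73 and 5.35 CPM). The highest MYC-deficient level was below the lowest MYC-WT level, and the fall was 3.59-fold (log2 fold change -1.84 ± 0.28, edgeR's quasi-likelihood adjusted p = 0.0159). Without MYC-WT replicate 1 the adjusted p was 0.0658, and without MYC-WT replicate 2 it was 0.0562.

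Its neighbour Hspa1a, which encodes a nearly identical protein, had 15 and 20 counts in MYC-deficient libraries, against 30 and 27 counts in MYC-WT libraries. These were the lowest counts of the 10 genes, at most 0.926 CPM, and the groups did not overlap. The log2 fold change was -0.66 ± 0.39 with a 95% interval of -1.65 to 0.33 (adjusted p = 0.281 in edgeR's quasi-likelihood test), so a change was not detectable at this depth. Hspa1a and Hspa1b share sequence: 58.8% of the 50-base stretches of Hspa1a and 62.3% of those of Hspa1b occur in the other. The sources used here do not say how reads that fit both were counted, and the level of each gene and the split between them are uncertain. When the counts of both genes were added before the fit, the pair had 2.07 and 2.65 CPM in MYC-deficient libraries, against 8.64 and 6.28 CPM in MYC-WT libraries. The sum fell 3.10-fold (log2 fold change -1.63 ± 0.27, edgeR's quasi-likelihood adjusted p = 0.0183). Against the constitutive Hspa8, the inducible pair amounted to 0.00136 and 0.00190 counts per Hspa8 count in MYC-deficient libraries and to 0.00392 and 0.00275 in MYC-WT libraries. Both ratios were lower in MYC-deficient cells, and the difference was not tested.

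Hsp90ab1, which encodes the constitutive HSP90 beta, had 1065 and 1153 CPM in MYC-deficient libraries, against 2561 and 2815 CPM in MYC-WT libraries. Both MYC-deficient values were less than the lowest MYC-WT value by more than the replicates differed, and the fall was 2.38-fold (log2 fold change -1.25 ± 0.15, edgeR's quasi-likelihood adjusted p = 0.0109). Ordered by count, it ranked 77 in both MYC-deficient libraries, against 11 and 10 among all genes in the MYC-WT libraries. Without MYC-WT replicate 2 its adjusted p was 0.0796, with a log2 fold change of -1.16.

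Hsp90aa1, which encodes HSP90 alpha, the more heat-inducible form, had 299 and 261 CPM in MYC-deficient libraries, against 705 and 629 CPM in MYC-WT libraries. The groups were far apart, with a fall of 2.34-fold (log2 fold change -1.23 ± 0.13, edgeR's quasi-likelihood adjusted p = 0.00904). It was the one called gene of the 10 that kept its call under all 15 alternative settings, with log2 fold changes between -1.29 and -1.15. Of its 50-base stretches 47.5% occur in pseudogenes too. The closest, Gm12346, had 69 and 45 counts in MYC-deficient libraries and 137 and 68 counts in MYC-WT libraries, beside 7179 to 23414 counts of Hsp90aa1.

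The proportion of the 2 HSP90 forms was similar in the genotypes. There were 0.280 and 0.226 Hsp90aa1 counts per Hsp90ab1 count in MYC-deficient libraries, against 0.275 and 0.223 in MYC-WT libraries. The higher value in each genotype was that of replicate 1, and the ranges overlapped. The mean log2 ratio differed by 0.02 between genotypes. Its sign changed with the libraries used, to -0.13 without MYC-deficient replicate 1 and to -0.13 without MYC-WT replicate 2. The 2 HSP90 genes together had 1363 and 1414 CPM in MYC-deficient libraries, against 3266 and 3444 CPM in MYC-WT libraries.

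**Figure D2:**
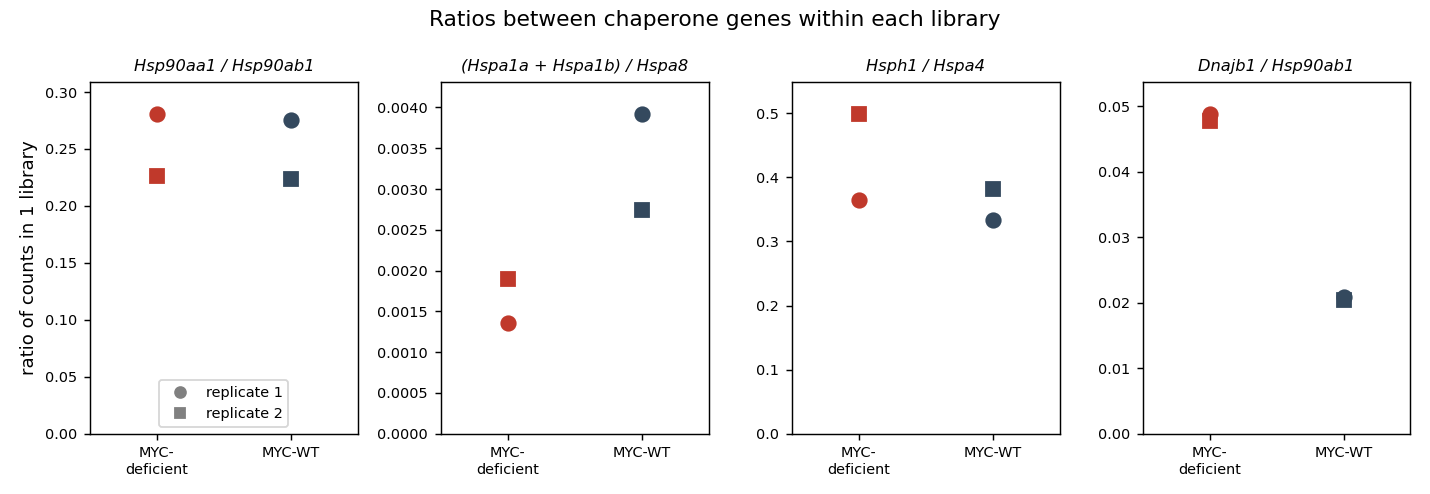
Ratios of counts between chaperone genes within each library, which do not depend on library scaling; each axis starts at 0, MYC-deficient libraries are red and left, MYC-WT libraries dark blue and right. The Hsp90aa1 to Hsp90ab1 ratio covers about the same range in both genotypes (0.226 to 0.280 against 0.223 to 0.275), whereas the inducible HSP70 pair is lower against Hspa8 and Dnajb1 is higher against Hsp90ab1 in both MYC-deficient libraries.

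Hspa4 encodes a cytosolic HSP110 protein that acts as a nucleotide exchange factor for HSP70. It had 278 and 250 CPM in MYC-deficient libraries, against 499 and 432 CPM in MYC-WT libraries. The groups did not overlap, and the fall was 1.73-fold (log2 fold change -0.79 ± 0.13, edgeR's quasi-likelihood adjusted p = 0.0172). Its adjusted p was 0.0811 when MYC-WT replicate 1 was left out and 0.0798 when replicate 2 was, so the call was lost.

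Hsph1, the other HSP110 gene, encodes a stress-inducible exchange factor. It had 101 and 124 CPM in MYC-deficient libraries, against 167 and 165 CPM in MYC-WT libraries. Both MYC-deficient values were lower, but they differed more from each other than the MYC-WT values did. The log2 fold change was -0.53 ± 0.14 with a 95% interval of -0.87 to -0.18, and the gene was not called (edgeR's quasi-likelihood adjusted p = 0.0530). Without MYC-deficient replicate 2 it was called, with a log2 fold change of -0.70 and an adjusted p of 0.0269. The Hsph1 to Hspa4 count ratio was 0.364 and 0.498 in MYC-deficient libraries and 0.334 and 0.382 in MYC-WT libraries, so the ranges overlapped.

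Dnaja1 encodes a type I J-domain protein, a main partner of HSC70. It had 71.9 and 69.2 CPM in MYC-deficient libraries, against 116 and 109 CPM in MYC-WT libraries. Replicates lay close together and the groups apart, with a 1.56-fold fall (log2 fold change -0.64 ± 0.10, edgeR's quasi-likelihood adjusted p = 0.0159). The call was lost when MYC-WT replicate 1 (adjusted p = 0.0710) or MYC-WT replicate 2 (0.0897) was left out. Its exons overlap those of Smu1, on the opposite strand, by 608 bases, and the sources used here do not state a strand setting. Smu1 had 3826 and 3078 counts in MYC-deficient libraries and 4225 and 3786 counts in MYC-WT libraries, more than Dnaja1 with 2573 and 1905 counts in MYC-deficient and 3839 and 3173 counts in MYC-WT libraries. The part of such shared reads in the Dnaja1 result was not tested.

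Dnajb1 encodes a type II J-domain protein (HSP40) that is strongly heat-inducible and binds both HSP70 and HSF1. It had 51.9 and 55.0 CPM in MYC-deficient libraries, against 53.5 and 57.5 CPM in MYC-WT libraries. The groups overlapped, the only case among the 10 genes. The log2 fold change was -0.03 ± 0.11, with a 95% interval of -0.31 to 0.26 that does not reach a 1.5-fold change in either direction (edgeR's quasi-likelihood adjusted p = 0.891). Over the 15 alternative settings its log2 fold change ran between -0.10 and 0.06, and no setting called it. Chosen after its values were seen, the ratio of Dnajb1 to Hsp90ab1 counts was 0.0488 and 0.0477 in MYC-deficient libraries, against 0.0209 and 0.0204 in MYC-WT libraries.

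Hsf1, the gene of the heat shock transcription factor, had 39.0 and 36.7 CPM in MYC-deficient libraries, against 53.6 and 54.6 CPM in MYC-WT libraries. The groups were separate and each pair of replicates was close. The log2 fold change was -0.49 ± 0.10 with a 95% interval of -0.75 to -0.23. Its adjusted p of 0.0329 in edgeR's quasi-likelihood test was under the threshold, but its 1.40-fold difference was below the fold threshold, so it was not called. RNA level does not measure the activation of HSF1, which is controlled mainly at the protein. Hsf1 lies on chromosome 15, as Myc does, 14.49 Mb beyond it.

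**Figure D3:**
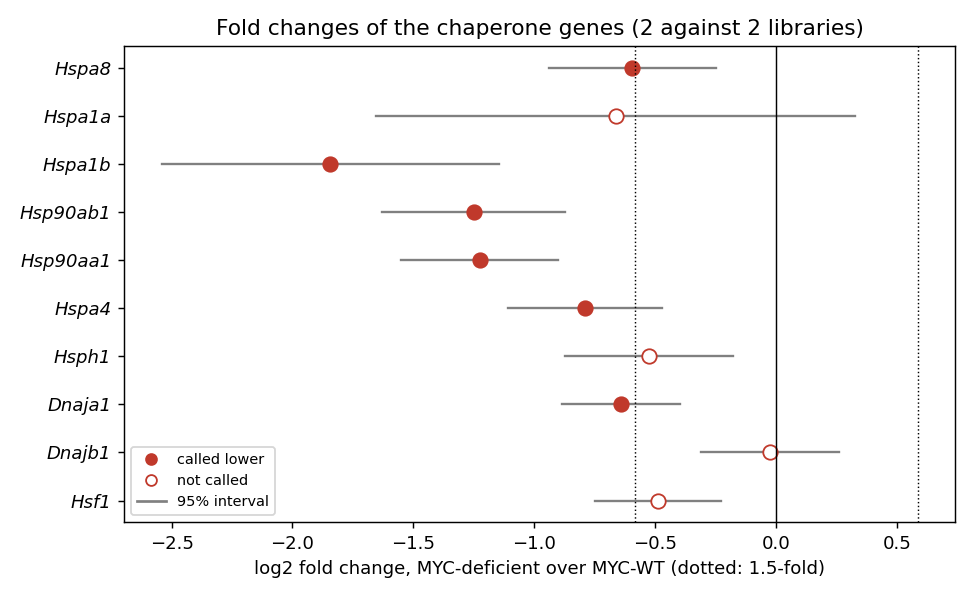
log2 fold change of each chaperone gene, MYC-deficient over MYC-WT, with its 95% interval from edgeR's quasi-likelihood fit (2 against 2 libraries); filled points were called lower, open points were not called, and dotted lines mark 1.5-fold. Hspa1b (-1.84), Hsp90ab1 (-1.25) and Hsp90aa1 (-1.23) lie farthest to the left, Dnajb1 (-0.03) sits at 0, and the Hspa1a interval is the widest of those that cross 0.

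Levels of different genes were compared per kilobase of exon, counting every base that lies in any annotated exon of the gene. This gave 4301 bases for Hspa8 and 2999 for Hsp90ab1. Transcripts made in these cells can be shorter, so the order of genes depends on this choice of length. It also depends on how reads that fit several genes were counted, which is not stated. Of the 50-base stretches, 39.4% in Hspa8, 47.5% in Hsp90aa1 and 3.44% in Hsp90ab1 occur in other genes. The part of such reads in the order of genes was not tested. Hsp90ab1 had 355 and 385 CPM per kilobase in MYC-deficient libraries, against 854 and 939 in MYC-WT libraries. Hspa8 had 354 and 325 CPM per kilobase in MYC-deficient libraries, against 513 and 531 in MYC-WT libraries. By this measure Hsp90ab1 was above Hspa8 in both MYC-WT libraries, whereas in MYC-deficient libraries the 2 genes were close, and nearly equal in replicate 1. By CPM alone, Hspa8 was above Hsp90ab1 in MYC-deficient libraries (1521 and 1397 against 1065 and 1153) and below it in MYC-WT libraries. Hsp90aa1 followed with 76.0 and 66.3 CPM per kilobase in MYC-deficient libraries, against 179 and 160 in MYC-WT libraries, and then Hspa4 with 50.3 and 45.2 against 90.3 and 78.1. Dnajb1, Hsph1, Dnaja1 and Hsf1 lay between 5.17 and 22.9 CPM per kilobase in all libraries, and Hspa1b and Hspa1a below all of these, at 2.76 or less. In MYC-WT libraries Hsph1 was above Dnajb1, whereas in MYC-deficient libraries their ranges overlapped.

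The summed level of the 10 genes was 3428 and 3348 CPM in MYC-deficient libraries, against 6368 and 6551 CPM in MYC-WT libraries. The mean in MYC-deficient cells was 0.525 of that in MYC-WT cells, and the gap was many times the difference between replicates, although 2 against 2 libraries allow no exact two-sided permutation p below 0.333. Hspa8 and Hsp90ab1 held 75.4% and 76.2% of these counts in MYC-deficient libraries and 74.8% and 77.8% in MYC-WT libraries, and 77.0% of the fall in the sum was in these 2 genes. The other 8 genes summed to 843 and 798 CPM in MYC-deficient libraries, against 1602 and 1453 CPM in MYC-WT libraries. In bulk RNA, fewer cells that express a gene and less of its RNA per cell cannot be told apart.

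Fewer of the 10 genes were called when a MYC-WT library was left out. A fit without 1 library takes the spread between replicates only from the genotype that keeps 2 libraries. Over the 15 alternative settings the log2 fold change ran from -1.34 to -1.15 for Hsp90ab1, -0.87 to -0.71 for Hspa4 and -0.67 to -0.60 for Dnaja1. For Hspa8 it ran from -0.64 to -0.55, and for Hspa1b, tested in 14 settings, from -2.06 to -1.58. Of the 10 genes, 2 (Hsp90aa1 and Hsp90ab1) were called lower when MYC-WT replicate 1 was left out, and 1 (Hsp90aa1) when MYC-WT replicate 2 was. Over all genes tested, the calls lower were then 693 and 199, against 1331 with all libraries. A fold threshold of 2 left 3 of the 10 genes (Hspa1b, Hsp90ab1 and Hsp90aa1).

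Partners of these chaperones were read from lists of related genes, which were chosen with results of these data already known. Each count below is a description beside the shares called among all genes tested, 9.91% lower and 6.06% higher. Differences between lists were not tested. Of 23 HSP90 cochaperones 11 fell and none rose, with a median log2 fold change of -0.46 over the list. Fkbp4, an immunophilin that brings HSP90 to steroid receptors, had 91.4 and 99.4 CPM in MYC-deficient libraries, against 235 and 239 CPM in MYC-WT libraries (log2 fold change -1.28 ± 0.11, edgeR's quasi-likelihood adjusted p = 0.00756). Cacybp fell by 1.26 on the log2 scale, the cyclophilin gene Ppid by 1.20, and Ruvbl2, an ATPase of the R2TP complex that works with HSP90, by 1.29. Without MYC-WT replicate 2 the list's count was 3.

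Of 9 HSP70 cochaperones and exchange factors 3 fell and none rose, with a median of -0.29. Bag2, which encodes an exchange factor that also inhibits the ubiquitin ligase CHIP, had 2.23 and 3.01 CPM in MYC-deficient libraries, against 9.66 and 9.88 CPM in MYC-WT libraries, a 3.66-fold fall (log2 fold change -1.87 ± 0.23, edgeR's quasi-likelihood adjusted p = 0.0115). St13 (HIP, which steadies the ADP-bound HSP70) fell 1.60-fold and Hspbp1 1.74-fold. The list's count lower was 1 without MYC-WT replicate 1 and 0 without the other. Among 18 tested J-domain genes other than Dnaja1 and Dnajb1, 1 fell and 1 rose, beside 9.91% called lower and 6.06% called higher over all genes tested. Dnajc2, which encodes the ribosome-bound J-domain protein MPP11, had 59.3 and 52.5 CPM in MYC-deficient libraries, against 122 and 116 CPM in MYC-WT libraries (log2 fold change -1.06 ± 0.11, edgeR's quasi-likelihood adjusted p = 0.00876). Dnajb5 had 13.4 and 11.8 CPM in MYC-deficient libraries, against 7.22 and 6.52 CPM in MYC-WT libraries (log2 fold change 0.90 ± 0.16, adjusted p = 0.0233 in the same test), and it was not called without either MYC-WT library.

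The other HSP70 and HSP110 genes of the cytosol (5 tested) held no call in either direction by edgeR's quasi-likelihood test, with 1 lower and 1 higher at an unadjusted p under 0.05 and a median log2 fold change of -0.11. DESeq2 and limma-trend also gave 0 calls. The authors' values used in limma-trend did not include Hspa1l or Hspa12b, and DESeq2 gave Hspa1l no adjusted p, so those could not be called there. Hspa2 had 3.44 and 5.77 CPM in MYC-deficient libraries, against 2.35 and 2.54 CPM in MYC-WT libraries, and was not called (adjusted p = 0.104 in edgeR's quasi-likelihood test); it was called higher without MYC-deficient replicate 1, with the replicate number as a block and without the filter on low counts. Hspa14 had 56.2 and 54.4 CPM in MYC-deficient libraries and 68.8 and 69.8 CPM in MYC-WT libraries, also without a call. Hspa4l, an HSP110 gene, had 49.8 and 51.0 CPM in MYC-deficient libraries and 50.5 and 45.2 CPM in MYC-WT libraries, so the groups overlapped (log2 fold change 0.10). Hspa12b (log2 fold change -0.16) and Hspa1l (-0.11) stood below 1 CPM in all libraries and were not called either. Of the small heat shock proteins 4 were tested, with 0 calls by edgeR, DESeq2 or limma-trend, 0 at an unadjusted p under 0.05 in edgeR's test, and a median of 0.31. Hsf2 had 37.0 and 36.7 CPM in MYC-deficient libraries and 33.9 and 35.0 CPM in MYC-WT libraries, and Hsbp1, whose product binds HSF1 and limits it, had 105 and 114 CPM in MYC-deficient and 93.5 and 98.0 CPM in MYC-WT libraries. Neither was called, nor was Hsf4.

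Of 12 further heat-inducible targets of HSF1 that were tested, 5 fell and none rose, with a median of -0.42, and all 5 also belong to the lists of HSP90 cochaperones or mitochondrial relatives. Bag3, another classical target, had 49.0 and 71.1 CPM in MYC-deficient libraries, against 53.7 and 70.2 CPM in MYC-WT libraries. Like Dnajb1, it overlapped between genotypes, although its replicates differed more.

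Relatives in other compartments were counted in the same way, beside 9.91% called lower and 6.06% called higher over all genes tested. Of 8 mitochondrial relatives 6 fell and none rose, with a median log2 fold change of -0.91. Hspa9, the mitochondrial HSP70, had 280 and 298 CPM in MYC-deficient libraries, against 717 and 723 CPM in MYC-WT libraries (log2 fold change -1.29 ± 0.12, edgeR's quasi-likelihood adjusted p = 0.00769). The chaperonin gene Hspd1 fell 4.10-fold, its lid Hspe1 3.02-fold and the mitochondrial HSP90 gene Trap1 1.94-fold. Without MYC-WT replicate 2 the list's count lower was 3.

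Of 9 relatives of the endoplasmic reticulum none was called in either direction by edgeR's quasi-likelihood test, in the fit of all libraries or under any of the 15 alternatives, and their median was 0.14. At an unadjusted p under 0.05, 1 was lower and 2 were higher. Over all genes tested 9.91% were called lower and 6.06% higher, so no call among 9 genes is near those shares. Hspa5 (BiP), the HSP70 of that compartment, had 558 and 692 CPM in MYC-deficient libraries, against 757 and 877 CPM in MYC-WT libraries (log2 fold change -0.36 ± 0.17, adjusted p = 0.201). Hsp90b1 (GRP94) had 448 and 412 CPM in MYC-deficient libraries, against 517 and 458 CPM in MYC-WT libraries (log2 fold change -0.15 ± 0.12, adjusted p = 0.409). In both genes the MYC-deficient values were below the MYC-WT values, by less than 1.5-fold.

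The cytosolic chaperonin TRiC, which folds actin and tubulin, and prefoldin, which hands it substrates, made up a list of 14 genes, of which 9 fell and none rose (median -0.84). Cct6a had 159 and 172 CPM in MYC-deficient libraries, against 436 and 465 CPM in MYC-WT libraries (log2 fold change -1.42 ± 0.12, edgeR's quasi-likelihood adjusted p = 0.00756). Cct3 fell 2.61-fold, Cct5 2.30-fold and Tcp1 1.92-fold. Without MYC-WT replicate 2 the count in this list was 2. Across all these chaperone lists together, leaving out the 10 genes, 95 of 108 genes could be tested: 30 were called lower, 1 higher and 64 neither, with a median of -0.29. Without MYC-WT replicate 2 the count lower was 9.

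**Figure D4:**
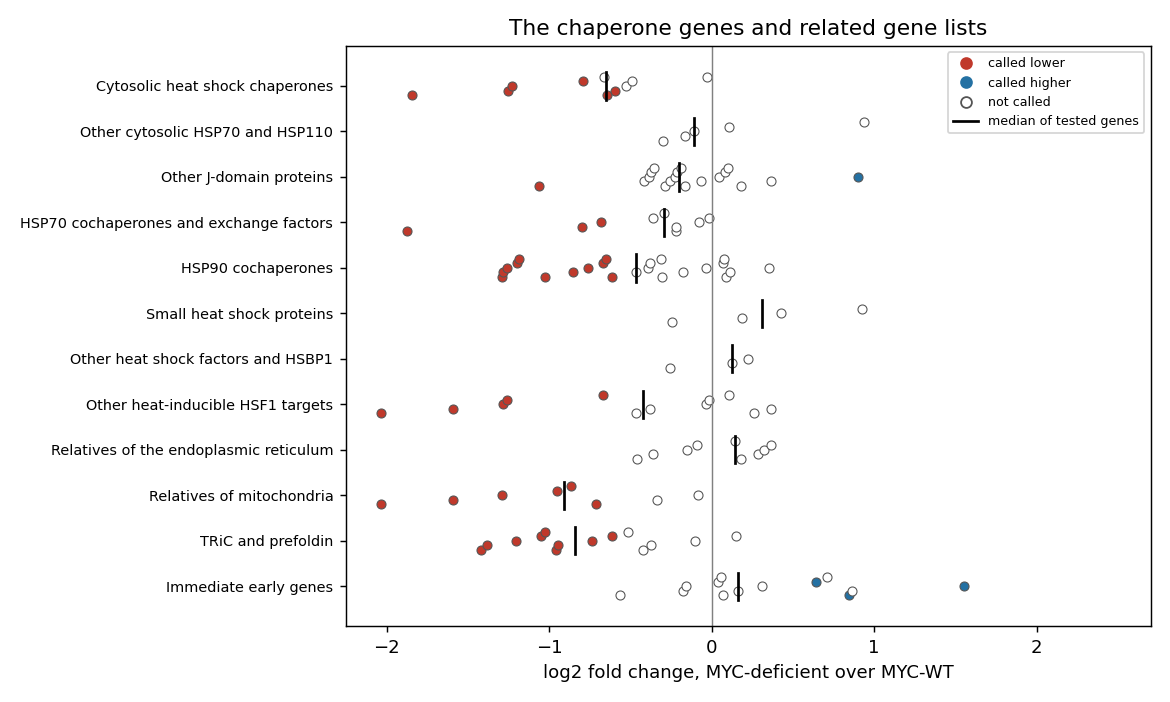
log2 fold change, MYC-deficient over MYC-WT, of every tested gene in each list; red points were called lower, blue points called higher, open points were not called, and black bars are list medians. The cytosolic heat shock chaperones (median -0.65), the mitochondrial relatives (-0.91) and TRiC with prefoldin (-0.84) lie left of 0, and the relatives of the endoplasmic reticulum lie on both sides of it (0.14).

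The cells were checked against marker genes, whose counts stand beside 9.91% called lower and 6.06% called higher over all genes tested. Of 8 macrophage markers, all measured, 4 rose (Adgre1, Csf1r, Cd68 and Itgam), and their list summed to 5143 and 4876 CPM in MYC-deficient libraries, against 3350 and 2906 CPM in MYC-WT libraries. Lyz2, the locus that carries LysM cre, had 9.30 to 19.0 CPM in the 4 libraries. Sequence that it may share with other genes was not checked, so its level is uncertain. Of 9 tested osteoclast markers 3 fell (Nfatc1, Ocstamp and Oscar) and 1 rose (Itgb3). At an unadjusted p under 0.05 in edgeR's quasi-likelihood test, 5 were lower and 2 higher. The list summed to 1418 and 1468 CPM in MYC-deficient libraries and to 1638 and 2373 CPM in MYC-WT libraries. Mmp9 was the largest part of the MYC-deficient sums, with 876 and 615 CPM, against 538 and 542 CPM in MYC-WT libraries. Ctsk had 85.1 and 204 CPM in MYC-deficient libraries, against 279 and 559 CPM in MYC-WT libraries. Acp5 had 95.7 and 160 CPM against 229 and 458 CPM, and none of these 3 was called. Calcr, a marker of mature osteoclasts, was at 0 in all 4 libraries. Monocyte markers summed to 291 and 176 CPM in MYC-deficient libraries, against 75.1 and 47.7 CPM in MYC-WT libraries, with 2 of 8 called higher (Ccr2 and Fn1). Neutrophil markers summed to 311 and 135 CPM in MYC-deficient libraries, against 113 and 51.0 CPM in MYC-WT libraries (1 of 9 called higher, Mmp8), and dendritic cell markers to 129 and 298 CPM against 27.6 and 67.5 CPM (2 of 8 called higher, Cd209a and Ccl22). Most of the dendritic cell sum was Itgax, with 121 and 290 CPM against 24.2 and 65.5 CPM. Itgax was not called (edgeR's quasi-likelihood adjusted p = 0.0624). Cd209a and Ccl22 stood at 3.59 CPM or less. Xcr1 (log2 fold change 0.05) and Clec9a (0.32), at 0.475 CPM or less, were not called. Lymphoid and erythroid markers summed to at most 1.23 CPM in any library. Stromal and endothelial markers summed to 6.96 and 1.92 CPM in MYC-deficient libraries, against 1.53 and 1.17 CPM in MYC-WT libraries, with 0 of 2 tested called by edgeR's quasi-likelihood test and 1 higher at an unadjusted p under 0.05. MYC-deficient replicate 1 stood apart in this list, with 98 counts of Col1a1 and 70 of Col1a2, genes at 0 in the other 3 libraries. Without that library 5 of the 10 chaperone genes were called lower, Hspa8 being the one lost. The part of these differences in the chaperone results was not tested.

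Immediate early genes, which respond within minutes to stress and handling, were read from a list of 13 tested genes, of which 3 rose and none fell (median 0.16). Jun had 168 and 172 CPM in MYC-deficient libraries, against 115 and 107 CPM in MYC-WT libraries (log2 fold change 0.64 ± 0.10, edgeR's quasi-likelihood adjusted p = 0.0164). Egr1 was not called and was far higher in replicate 1 of both genotypes. It had 154 and 5 counts in MYC-deficient libraries and 217 and 10 counts in MYC-WT libraries. Egr2 rose by 1.55 and Btg2 by 0.85 on the log2 scale, and the list's count higher was 1 without MYC-WT replicate 1, without MYC-WT replicate 2 and with a fold threshold of 2. It was 5 with DESeq2, without the filter on low counts and with the replicate number as a block. Their part in the chaperone results was not tested.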

How the data were processed

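RNA from 4 libraries (2 MYC-deficient, 2 MYC-WT) was analysed from the raw gene counts that the authors deposited. The submitters' processing notes name STAR 2.7.3a, bcl2fastq 1.8.4, edgeR and fastp, and the mm10 build. For the counting tool, the treatment of reads that fit several genes, the strand setting and the annotation release, nothing is stated in the sources used here. The log2 CPM values the authors deposited for 11109 genes, normalized by them, served only an alternative test. Hspa1a is not among those genes.

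Tests were run with edgeR 4.0.16 under R 4.3.3 (TMM, filterByExpr with min.count 10 and min.total.count 15, genotype as the only term, 2 residual degrees of freedom, common biological coefficient of variation 0.167, Benjamini-Hochberg adjustment). The standard error of a log2 fold change was its size over the root of the F statistic. The script was checked on counts simulated with the dispersions fitted here, which checks the code and not whether the calls would repeat. Both pairs of replicates differed beyond sampling noise (mean chi-square 60.1 a gene for MYC-deficient and 35.3 for MYC-WT libraries). All 28443 identifiers were found in GENCODE 21 (mouse), which gave exon lengths and shared sequence; all 10 genes had identical coordinates there. Promoter sequences are from RefSeq (GRCm38.p6), and the paired heat shock unit was searched after the longer arrangement gave no match.

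The 10 genes and the 19 lists were chosen with earlier results of these data known. Named besides the 10 genes are Myc, Hspa5, Hspa9, Hsp90b1 and Trap1, up to 4 called genes per list and direction by smallest adjusted p, and tested genes of lists of 6 or fewer. Bag3, Egr1 and the marker genes were added after seeing values. Alternatives were DESeq2 1.42.0, limma-trend (limma 3.58.1) on the authors' log2 CPM, the likelihood ratio test of edgeR, RLE scaling or unscaled totals, no filter or the genes the authors kept, fold thresholds of 2 or none, Hspa1a and Hspa1b summed, a block for the replicate number, and each library left out in turn.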

Additional observations from a re-analysis of the deposited data

How the results depend on the processing

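All 10 genes except Dnajb1 kept a negative fold change under every one of the 15 alternatives in which they could be tested, and none of the 10 was called higher in any. With a fold threshold of 2 the genes called lower were 3 of the 10, 689 of all genes tested and 16 of the wider chaperone lists, and 349 genes were called higher. Leaving out 1 library at a time gave 1 to 6 of the 10 genes called lower, 199 to 1281 of all genes lower and 65 to 1011 higher, and 9 to 30 of the wider lists lower; the lowest of each was without MYC-WT replicate 2. Without the filter on low counts 1385 genes were called higher. The log2 difference of the summed level, -0.93, was -0.90 on TMM-scaled CPM and -0.95 to -0.91 with a library left out, and the log2 difference of the Hsp90aa1 to Hsp90ab1 ratio ran between -0.13 and 0.18, with -0.134 without MYC-deficient replicate 1 and -0.128 without MYC-WT replicate 2. Why fewer genes were called without a MYC-WT library was not tested.

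Replicates 1 and 2 of the genotypes share a number, but no label ties them to a common batch. Deviations of same-numbered libraries had a correlation of 0.499. With the replicate block 1400 genes were called higher and 1774 lower. The 6 called chaperone genes kept their calls, and no other of the 10 gained one. In 146 alternative values of the 10 genes, 17 lost a call and 2 gained one. For 31 other named genes, 24 of 461 lost and 3 gained a call. With 2 libraries per genotype, low-count genes such as Hspa1a have wide intervals.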
